A study of Mus musculus with 4 samples.

Results

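The Pdgf ligand and receptor genes are the 4 ligand genes *Pdgfa*, *Pdgfb*, *Pdgfc* and *Pdgfd* and the 2 receptor genes *Pdgfra* and *Pdgfrb*. They were taken by gene symbol as a family, with earlier results of these data known, and are 6 of the 22096 genes in the expression tables. RNA was sequenced from 4 mouse littermate embryos at embryonic day 13.5 (E13.5), when the palatal shelves, the outgrowths that later fuse into the secondary palate, grow beside the tongue. All 4 embryos carried the *Osr2RFP/+* allele, a red fluorescent reporter read out from the *Osr2* gene, on a mixed strain background, and the palatal shelf cells that fluoresced red were isolated by flow sorting. The control embryos were 1 *Osr2RFP/+* embryo, which has 2 normal copies of *Foxf2* and is called the *Foxf2+/+* control here, and 1 *Foxf2+/-Osr2RFP/+* embryo, called the *Foxf2+/-* control. The mutants were 2 *Foxf2-/-Osr2RFP/+* embryos, called *Foxf2-/-* embryos 1 and 2. *Foxf2*, which encodes a forkhead transcription factor, was inactivated in every cell of these mutants and not in the palate alone, and each control genotype had 1 embryo.

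Platelet-derived growth factors are secreted dimers that draw a pair of receptor tyrosine kinases together at the cell surface, after which the receptors phosphorylate each other and recruit PI3-kinase, phospholipase C gamma and Ras activators. PDGF-A and PDGF-C act mainly through the alpha receptor, PDGF-D through the beta receptor and PDGF-B through both. PDGF-A and PDGF-B are cut by furin-type convertases inside the cell, whereas PDGF-C and PDGF-D leave the cell as latent factors and are activated outside it. In the face, the ligands for the alpha receptor are made largely by the epithelium and the receptor by the neural crest-derived mesenchyme beneath it, and mice that lack *Pdgfc*, or *Pdgfra* in the neural crest, have a cleft palate. *Pdgfrb* is best known as a marker of pericytes, the cells that wrap small blood vessels and are drawn there by PDGF-B from the endothelium, but it is also read out in mesenchyme at large.

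Levels are given as FPKM, in which the fragments of a transcript are divided by its length and by the number of mapped reads, and which allow levels to be compared between genes within an embryo. Each RefSeq transcript has a row in the tables, called an entry here, and the entries of a gene were summed. *Pdgfra* and *Pdgfrb* each had 2 entries, and the ligand genes had 1 each. The 2 *Pdgfra* entries start at different places, so the 250 bases before each start are shown because the split of *Pdgfra* RNA between these entries, described with the receptors, differed between the groups. Both sequences were read from the mm9 genome on the plus strand, 5′ to 3′, and the capitals mark CG dinucleotides.
Before the start of NM_011058, chr5:75548066-75548315: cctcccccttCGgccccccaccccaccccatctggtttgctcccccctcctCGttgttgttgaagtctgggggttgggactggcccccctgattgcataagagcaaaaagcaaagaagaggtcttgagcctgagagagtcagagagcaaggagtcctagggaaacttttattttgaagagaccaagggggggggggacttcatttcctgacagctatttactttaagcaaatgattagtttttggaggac
Before the start of NM_001083316, chr5:75551941-75552190: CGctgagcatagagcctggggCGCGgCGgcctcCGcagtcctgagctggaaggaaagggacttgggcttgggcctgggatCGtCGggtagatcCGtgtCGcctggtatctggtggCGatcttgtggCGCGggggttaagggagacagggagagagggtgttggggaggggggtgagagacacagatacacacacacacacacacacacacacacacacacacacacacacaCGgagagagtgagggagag
The first sequence lies upstream of the whole gene and holds 2 CG dinucleotides, with 52% G and C and an observed to expected CG ratio of 0.118, a ratio at the 13.0th percentile of the regions of the same length before 45975 annotated starts of protein-coding transcripts. The second lies in intron 1 of NM_011058, which starts further upstream, and holds 13 CG dinucleotides, with 61.6% G and C and a ratio of 0.584, at the 54.5th percentile. On either strand, neither sequence held the forkhead core TGTTTAC, which 2.65% of those regions held, the TATA box TATAAA, which 10.5% held, or the GC box GGGCGG, which 41.1% held. Only these exact letters were looked for, so variant forms of each site were not counted and may be present in either sequence. These matches describe letters only and say nothing of binding.

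*Foxf2* itself followed the labels. Its level was 85.4 FPKM in the *Foxf2+/+* control, 45.1 in the *Foxf2+/-* control, and 1.41 and 2.28 in *Foxf2-/-* embryos 1 and 2, a log2 fold change of -5.03 ± 0.31 (SE, limma with Benjamini-Hochberg adjustment, adjusted p = 0.00427). The files hold no read counts, so the depth of each library is unknown, and the deposited coverage places the relative depths between 1 and 1.19. All 11 markers of palatal mesenchyme were at or above 1 FPKM in every embryo, with summed levels between 1371 and 1620 FPKM. Summed markers of red blood cells ran from 296 FPKM in the *Foxf2+/+* control through 1593 in *Foxf2-/-* embryo 1 and 1828 in the *Foxf2+/-* control to 4356 in *Foxf2-/-* embryo 2. Markers of skeletal muscle summed to 0.935 to 1.94 FPKM and those of glia and neurons to 4.27 to 10.1 FPKM. Globin RNA differed between embryos within each group, and its part in the values of the Pdgf genes was not tested.

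The receptor genes were highly expressed in the sorted mesenchyme, *Pdgfc* and *Pdgfa* were at the middle of the range of genes, and *Pdgfd* and *Pdgfb* were near the floor. By mean level over the 4 embryos the order was *Pdgfra* (55.5 FPKM), *Pdgfrb* (38.6), *Pdgfc* (9.49), *Pdgfa* (6.54), *Pdgfd* (0.365) and *Pdgfb* (0.0325). The ranges of neighbours in this order did not overlap in any case. *Pdgfa* reached up to 7.70 FPKM and *Pdgfc* started from 9.17, and *Pdgfb* reached up to 0.0912 and *Pdgfd* started from 0.282. *Pdgfra* lay at or above 95% and *Pdgfrb* at or above 92.1% of the 11571 genes with at least 1 FPKM in at least 1 embryo, while *Pdgfc* lay at or above 61.6% and *Pdgfa* at or above 49.4%. *Pdgfd* and *Pdgfb* were under 1 FPKM in every embryo and were not among these genes.

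**Figure D1:**
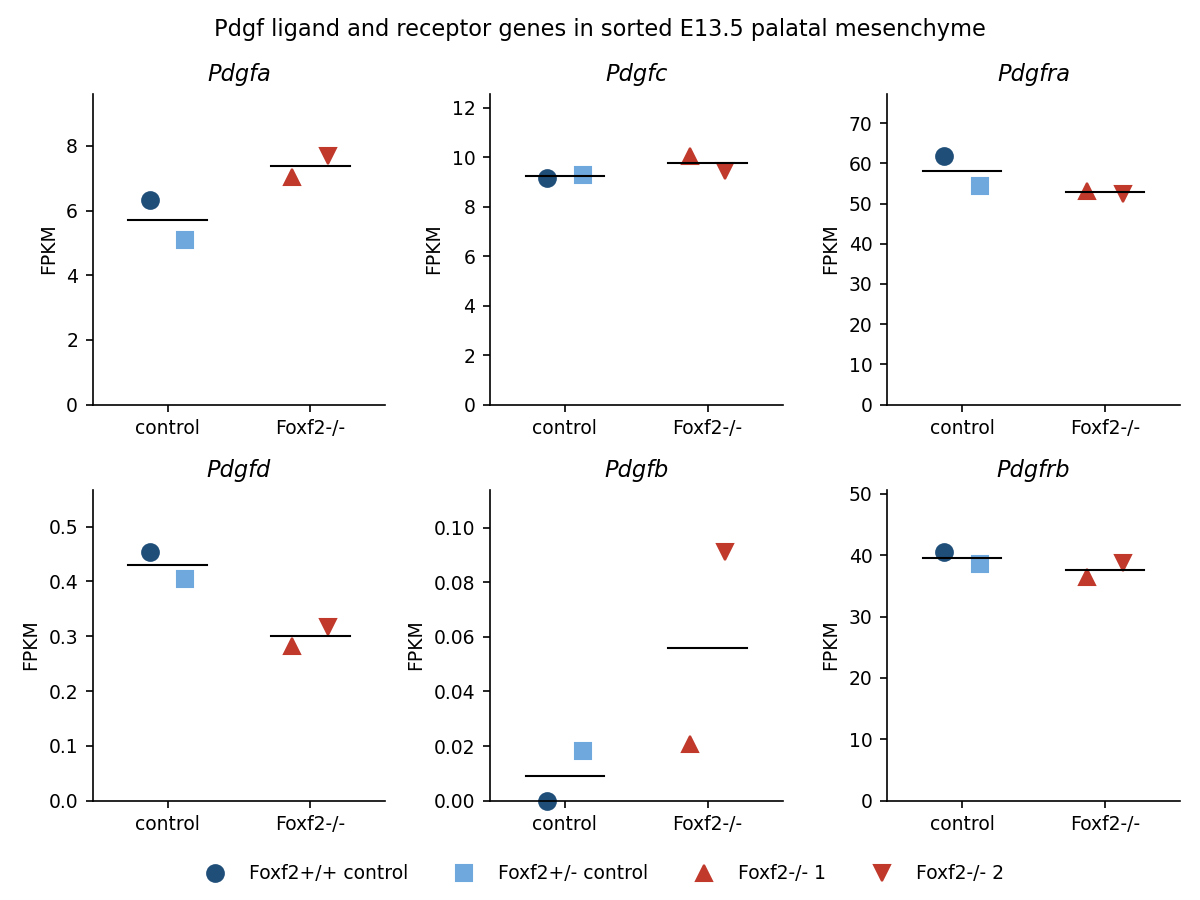
Level of each Pdgf ligand and receptor gene in FPKM (linear vertical axis, its own scale in each panel) in the 2 control embryos and the 2 *Foxf2-/-* embryos, with 1 point per embryo and a line at each group's mean. *Pdgfa*, *Pdgfc* and *Pdgfb* were higher in both *Foxf2-/-* embryos than in both controls, as were 10.2% of all genes tested. *Pdgfra* and *Pdgfd* were lower in both, as were 35.5%, and *Pdgfrb* overlapped between the groups. *Pdgfb* and *Pdgfd* were under 1 FPKM in every embryo and were not among the genes tested.

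None of the 4 Pdgf genes that could be tested passed the threshold between *Foxf2-/-* and control embryos. The test was limma on log2(FPKM + 0.1) across 11571 genes, 2 embryos per group, with an adjusted p of 0.05 as threshold, and it called 7 genes of all those tested, which is 0.0605%. *Pdgfa* alone of the 4 had an unadjusted p under 0.05, as did 13.0% of all genes tested. By the fold used for these data, more than 1.5-fold against each control in the same direction, which is no test, again 0 of the 4 were past the limit, against 1.87% of all genes. The exact permutation test over single embryos cannot give less than p = 0.333 with 2 embryos per group. Because sorted cells were measured in bulk, fewer cells of a type and less RNA per cell cannot be told apart. The limma p-values rest on the spread between these 4 embryos combined with a variance estimated over all tested genes. The spread of the controls includes their difference in *Foxf2* genotype.

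Of the tested ligand genes, *Pdgfa* had the larger difference. *Pdgfa* encodes the A chain, which is made in epithelium at many sites in the embryo and acts on the alpha receptor. Its entry NM_008808 (1015 bases, chromosome 5, 139452929 to 139470907, minus strand, mm9) was the only one in the tables, although the GENCODE annotation gives coding sequences of 633 and 588 bases for this gene, so that long and short forms of the chain were not separated. *Pdgfa* measured 6.32 FPKM in the *Foxf2+/+* control, 5.10 in the *Foxf2+/-* control, 7.05 in *Foxf2-/-* embryo 1 and 7.70 in *Foxf2-/-* embryo 2. Both mutants were above both controls, and the *Foxf2+/-* control was the lowest of the 4. The means were 5.71 ± 0.86 FPKM in controls and 7.37 ± 0.46 in mutants (SD, n = 2 each). The log2 fold change was 0.37 ± 0.13 (SE), or 1.29-fold with a 95% interval from 1.04 to 1.60. The limma p was 0.0243 before adjustment and 0.334 after it, and the exact permutation p was 0.333. The size of the difference depended on the control, and it was 0.22 on the log2 scale against the *Foxf2+/+* control and 0.52 against the *Foxf2+/-* control, and the controls differed from each other by 0.30. In absolute size the log2 fold change was at or above that of 90.0% of the genes tested.

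Epithelial RNA in the sorted cells was low. Of 11 epithelial markers, 1 was at or above 1 FPKM in every embryo and 5 were below 1 in all of them. Their summed level was 8.78 FPKM in the *Foxf2+/+* control, 9.58 in the *Foxf2+/-* control, 9.62 in *Foxf2-/-* embryo 1 and 11.7 in *Foxf2-/-* embryo 2. The *Foxf2+/-* control and *Foxf2-/-* embryo 1 were nearly level, and *Foxf2-/-* embryo 2 stood highest. Of the 6 markers tested, 1, *Trp63*, was above both controls in both mutants and 0 were below (10.2% and 35.5% of all genes). Their median log2 fold change was -0.02. Of the 5 markers below 1 FPKM, *Cdh1*, *Krt15*, *Shh* and *Esrp1* were also above both controls in both mutants, and *Krt5* overlapped. No epithelial marker was at 0 in all embryos. The summed level was lowest in the *Foxf2+/+* control. The part of these markers in the *Pdgfa* value was not tested.

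*Pdgfc*, whose product carries a CUB domain that must be cut off before it can bind the alpha receptor, was the most abundant ligand gene in each embryo. Its entry NM_019971 (3512 bases) spans 80840338 to 81017953 on chromosome 3, plus strand. *Pdgfc* measured 9.17 and 9.28 FPKM in the *Foxf2+/+* and *Foxf2+/-* controls and 10.1 and 9.44 in *Foxf2-/-* embryos 1 and 2. The mutants were above both controls, but the nearest values, 9.28 and 9.44, were closer than the mutants were to each other. The log2 fold change was 0.08 ± 0.10 (SE), or 1.06-fold with a 95% interval from 0.902 to 1.23 (adjusted p = 0.770, limma). Within that interval, a lower or a higher level of *Pdgfc* in the mutants was not detectable with 2 embryos per group.

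*Pdgfd* and *Pdgfb* were hardly detected. *Pdgfd*, whose product is a latent factor for the beta receptor (entry NM_027924, 1795 bases, chromosome 9, 6168612 to 6377519, plus strand, 7 exons), measured 0.454 FPKM in the *Foxf2+/+* control, 0.404 in the *Foxf2+/-* control, 0.282 in *Foxf2-/-* embryo 1 and 0.317 in *Foxf2-/-* embryo 2. Both mutants were below both controls, with means of 0.300 ± 0.025 FPKM against 0.429 ± 0.035 (SD, n = 2 each). The same held for 35.5% of the genes tested, which do not include *Pdgfd*. When all genes were fitted without a filter on low values, the *Pdgfd* log2 fold change of -0.40 had an adjusted p of 0.618 (limma). *Pdgfb*, the ligand that endothelium uses to recruit pericytes (entry NM_011057, 2942 bases, chromosome 15, 79826306 to 79845238, minus strand), was listed at 0 FPKM in the *Foxf2+/+* control, and at 0.0182 in the *Foxf2+/-* control and 0.0206 and 0.0912 in *Foxf2-/-* embryos 1 and 2. Endothelial RNA was also near the floor, with all 8 endothelial markers below 1 FPKM in every embryo, *Cldn5* at 0 in all, and summed levels of 0.480 and 0.936 FPKM in the controls against 1.02 and 1.87 in the mutants. Both *Pdgfb* and this sum were lowest in the *Foxf2+/+* control and highest in *Foxf2-/-* embryo 2, and the part of the one in the other was not tested. Platelets carry PDGF protein, and the summed level of 5 megakaryocyte and platelet markers was 5.11 and 6.85 FPKM in the controls against 1.71 and 4.07 in the mutants. Within it, *Pf4* was at 4.28 and 5.69 FPKM in the controls against 0.684 and 2.86 in the mutants, whereas *Ppbp* was at 0.036 and 0.059 FPKM in the controls against 0.208 and 0.245 in the mutants. The part of platelet RNA in the *Pdgfb* values was not tested.

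Of the 4 tested Pdgf genes, *Pdgfa* and *Pdgfc* were above both controls in both mutants, a pattern shown by 10.2% of all genes, and *Pdgfra* was below both controls in both mutants, which held for 35.5% of all genes. The median log2 fold change of all genes was -0.08, so low values in the mutants were the more common ones. After each embryo was rescaled by median ratios, 21.1% of genes were above and 21.5% below both controls. On that scale *Pdgfa* stayed above both controls (6.02 and 5.05 against 7.45 and 7.70), as did *Pdgfc* (8.75 and 9.18 against 10.6 and 9.44), while *Pdgfra* no longer separated (59.0 and 53.8 against 56.1 and 52.4).

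**Figure D2:**
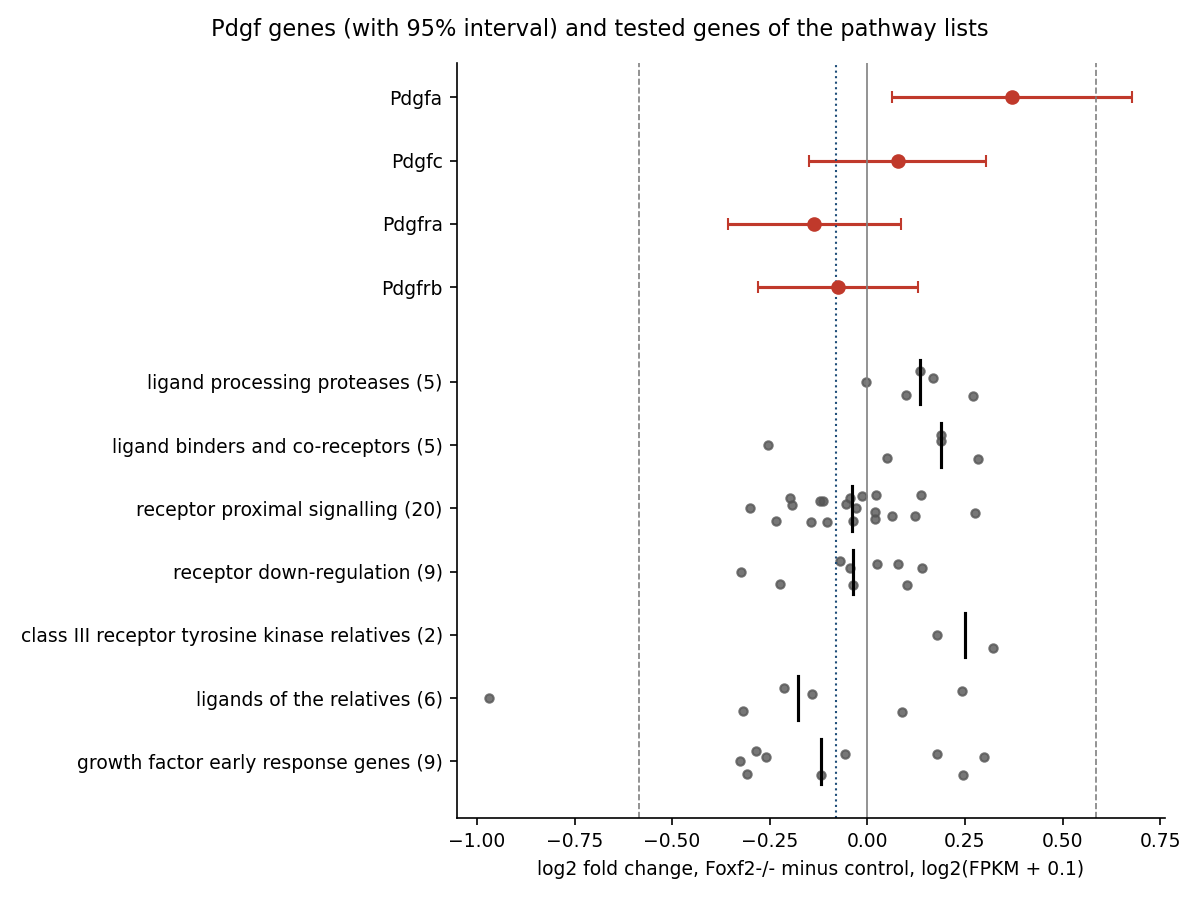
Log2 fold change between *Foxf2-/-* and control embryos on the log2(FPKM + 0.1) scale (horizontal axis) for the 4 tested Pdgf genes, as points with 95% limma intervals, and for the tested genes of 7 pathway lists, as grey points with the median of each list as a vertical bar and the number of genes in brackets. Dashed lines mark 1.5-fold, the dotted line is the median of all genes at -0.08, and only the *Pdgfa* interval leaves out 0, before adjustment for the number of genes.

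The receptor genes differed little in total, and neither passed the test. *Pdgfra*, which encodes the alpha receptor, the main receptor of facial mesenchyme for PDGF-A and PDGF-C, measured 61.9 FPKM in the *Foxf2+/+* control, 54.4 in the *Foxf2+/-* control, 53.1 in *Foxf2-/-* embryo 1 and 52.4 in *Foxf2-/-* embryo 2. Both mutants were below both controls, but the *Foxf2+/-* control was nearer to the mutants than to the *Foxf2+/+* control. The means were 58.1 ± 5.3 FPKM in controls and 52.8 ± 0.5 in mutants (SD, n = 2 each). The log2 fold change was -0.14 ± 0.09 (SE), or 0.910-fold with a 95% interval from 0.781 to 1.06 (adjusted p = 0.582, limma). Against the *Foxf2+/+* control the *Pdgfra* change was -0.23 on the log2 scale, and against the *Foxf2+/-* control it was -0.04.

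*Pdgfrb*, which encodes the beta receptor, measured 40.6 FPKM in the *Foxf2+/+* control, 38.6 in the *Foxf2+/-* control, 36.4 in *Foxf2-/-* embryo 1 and 38.8 in *Foxf2-/-* embryo 2. The groups overlapped, with *Foxf2-/-* embryo 2 between the controls. The log2 fold change was -0.07 ± 0.09 (SE), or 0.950-fold with a 95% interval from 0.824 to 1.09 (adjusted p = 0.760, limma; exact permutation p = 0.667), and the log2 fold change was 0.0064 after rescaling by median ratios. *Pdgfrb* was far more abundant than the markers of pericytes and smooth muscle, of which 4 of 8 were at or above 1 FPKM in every embryo and whose summed level was 19.9 and 17.5 FPKM in the controls against 18.1 and 21.7 in the mutants. Those at or above 1 FPKM in every embryo were *Rgs5*, *Cspg4*, *Notch3* and *Acta2*. *Abcc9* reached 1 FPKM in *Foxf2-/-* embryo 2 alone, and *Myh11* in the *Foxf2+/+* control alone. The pericyte genes *Kcnj8* and *Higd1b* were below 1 FPKM in all 4 embryos. *Pdgfrb* at 36.4 to 40.6 FPKM exceeded the sum of all 8 markers in each embryo. The part of pericytes in the *Pdgfrb* values was not tested.

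Within these totals, the split of both receptor genes between their entries differed between the groups. The *Pdgfra* entries NM_011058 (6553 bases, chr5:75548316-75594229) and NM_001083316 (6570 bases, chr5:75552191-75594229) share 22 of 23 exons and the whole coding sequence of 3267 bases, and differ in their noncoding first exons of 167 and 184 bases, the starts of which are preceded by the sequences given above. NM_001083316 measured 5.68 and 4.80 FPKM in the *Foxf2+/+* and *Foxf2+/-* controls and 9.50 and 8.36 in *Foxf2-/-* embryos 1 and 2. NM_011058 measured 56.2 and 49.6 FPKM in the controls against 43.6 and 44.1 in the mutants. The entry with the downstream start thus made up 9.18% and 8.83% of *Pdgfra* in the controls and 17.9% and 15.9% in the mutants, or 9.0 ± 0.24% against 16.9 ± 1.4% (SD, n = 2 each). The groups did not overlap, and each group's spread was smaller than the gap.

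For *Pdgfrb*, the entries NM_008809 (5410 bases) and NM_001146268 (5413 bases) have the same start and end on chromosome 18 (61204804 to 61244721, plus strand) and differ by 3 bases in length. NM_001146268 made up 21.1% and 13.8% of *Pdgfrb* in the *Foxf2+/+* and *Foxf2+/-* controls and 34.6% and 27.8% in *Foxf2-/-* embryos 1 and 2. The shares did not overlap between the groups, but they differed by about as much within each group as between the closest embryos of the groups, the *Foxf2+/+* control and *Foxf2-/-* embryo 2. The mean FPKM of this entry was 6.96 ± 2.29 in controls and 11.7 ± 1.3 in mutants, and that of NM_008809 was 32.6 ± 0.9 and 25.9 ± 3.0 (SD, n = 2 each).

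A shift of this kind was not rare among other genes. Of 944 genes with 2 entries, at least 5 FPKM in every embryo and some FPKM in both entries, 165 had a lower entry with a larger share in both mutants than in both controls, which is 17.5%. Only rises of the lower entry were counted here, so shifts in either direction were more common than these shares. The mean share of the lower entry was 7.90 percentage points higher in the mutants for *Pdgfra*, and it was higher by at least as much for 107 of the 944 genes, or 11.3%. For *Pdgfrb* it was 13.7 points higher, which 51 genes, or 5.40%, reached or passed. The SD of the change over these genes was 9.87 points around a median of 0.0029. The split of reads between entries that share most of their bases is an estimate of the authors' program, its error is not known here, and no test was made of it.

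**Figure D3:**
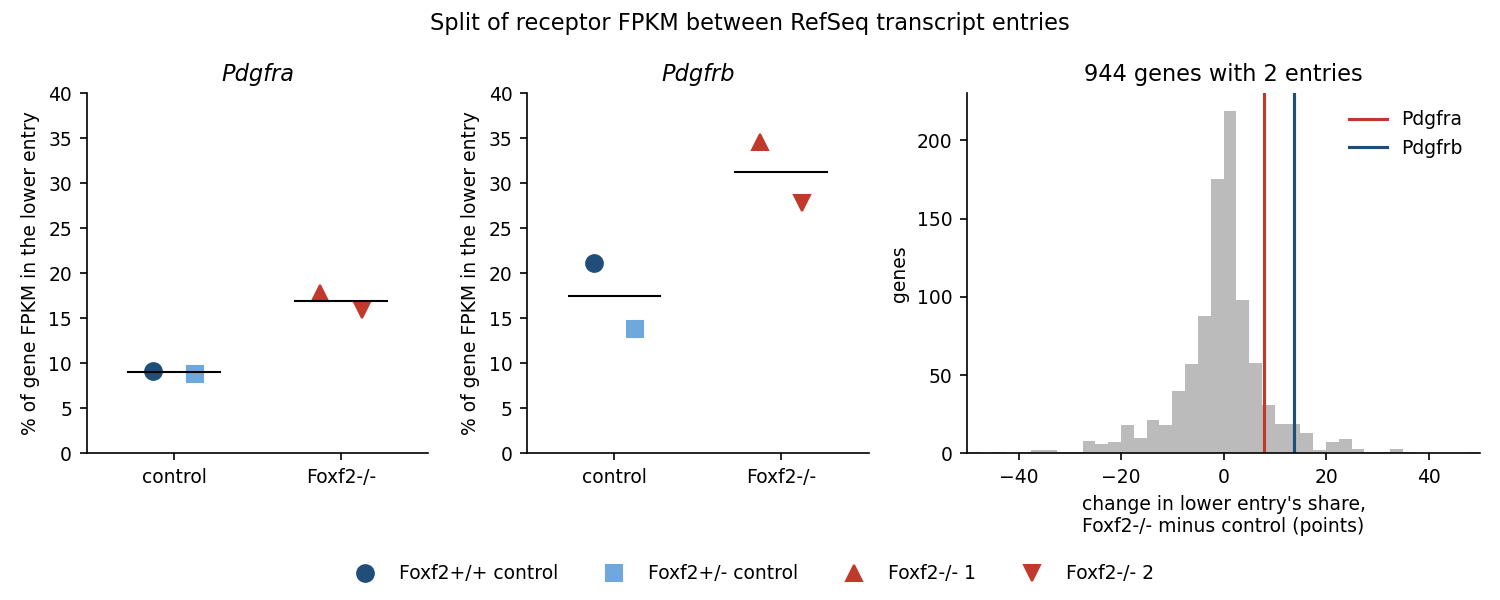
Share of each receptor gene's FPKM that lay in its lower entry (vertical axis, percent) in the 2 control and 2 *Foxf2-/-* embryos, with a line at each group's mean, and, at the right, the number of genes by change of that share in percentage points for 944 genes with 2 entries. The *Pdgfra* share was 8.83% to 9.18% in controls and 15.9% to 17.9% in mutants, and the vertical lines place its change of 7.90 points and that of *Pdgfrb*, 13.7 points, in the right shoulder of the distribution.

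Ratios between Pdgf genes within an embryo do not depend on how the libraries are scaled. The summed receptors reached 102 and 92.9 FPKM in the *Foxf2+/+* and *Foxf2+/-* controls and 89.5 and 91.2 in *Foxf2-/-* embryos 1 and 2, while the summed ligands were 15.9 and 14.8 FPKM in the controls against 17.4 and 17.5 in the mutants. The ratio of receptor to ligand RNA was thus 6.43 and 6.28 in the controls and 5.14 and 5.20 in the mutants, or 6.35 ± 0.10 against 5.17 ± 0.04 (SD, n = 2 each). Every mutant ratio was lower than every control ratio, as follows from the sums, neither of which overlapped between the groups. The ligand genes *Pdgfa* and *Pdgfc* and the receptor gene *Pdgfra* contributed to this in the directions given above, none of them past the test. This ratio was chosen after the values of its genes were seen, and it was given no test. How often such ratios of other genes separate the groups was not worked out.

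*Pdgfc* made up 57.5% and 62.7% of the ligand sum in the controls and 57.8% and 53.8% in the mutants, and *Pdgfa* made up 39.6% and 34.4% in the controls and 40.5% and 43.9% in the mutants. The ratio of *Pdgfc* to *Pdgfa* was 1.45 and 1.82 in the controls and 1.43 and 1.23 in the mutants, where the *Foxf2+/+* control and *Foxf2-/-* embryo 1 nearly met. *Pdgfd* made up 2.85% and 2.73% in the controls and 1.62% and 1.81% in the mutants, and *Pdgfb* did not exceed 0.520% in any embryo. Alpha receptor RNA exceeded beta receptor RNA in each embryo, with *Pdgfra* to *Pdgfrb* ratios of 1.53 and 1.41 in the controls and 1.46 and 1.35 in the mutants, which overlapped.

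**Figure D4:**
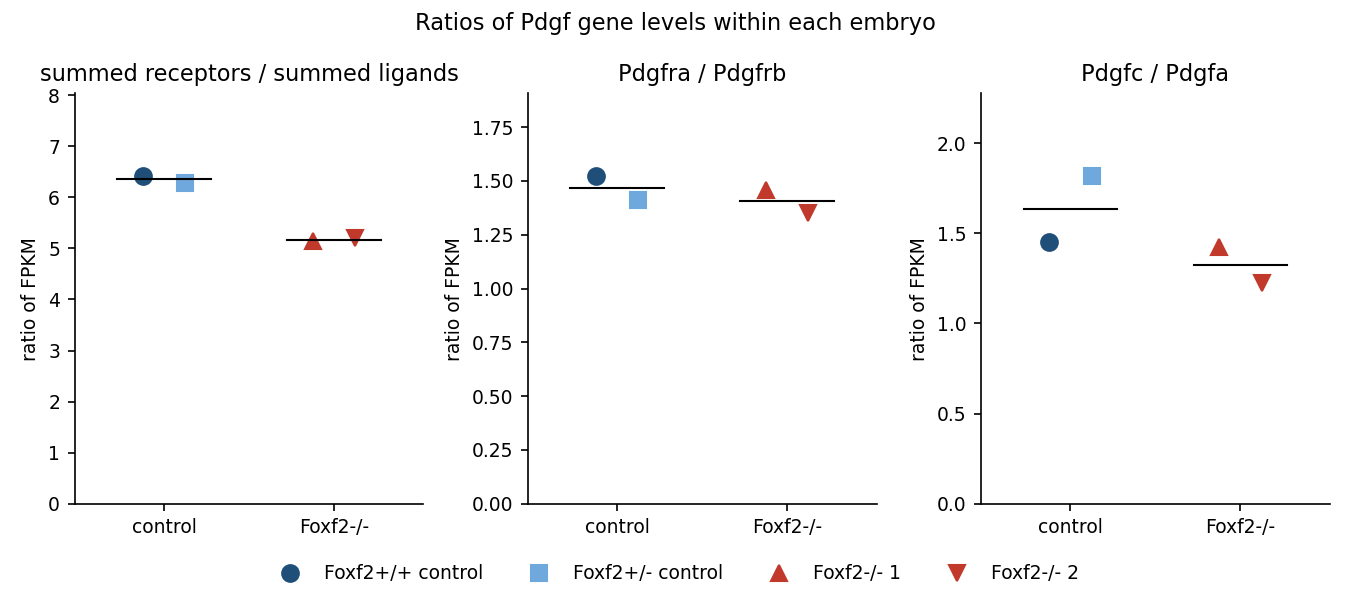
Ratios of FPKM within each embryo (vertical axes from 0, no unit) for the 2 control and 2 *Foxf2-/-* embryos, with a line at each group's mean. The ratio of summed receptors to summed ligands was 6.28 to 6.43 in controls and 5.14 to 5.20 in mutants, whereas the *Pdgfra* to *Pdgfrb* ratios of the groups overlapped. The receptor to ligand ratio was chosen after the values of its genes were seen and was not tested.

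The genes most like each Pdgf gene over the 4 embryos were found by the root mean square difference of log2 values, each gene centred on its own mean. *Grina*, with a difference of 0.0194, and *Tmem177*, with 0.0373, were nearest to *Pdgfa*, and 135 genes, or 1.17% of those tested, lay within 0.1. *Grina* measured 10.2 and 8.40 FPKM in the controls against 11.2 and 12.3 in the mutants. The flatter profiles of the other members had many near neighbours: 2473 genes (21.4%) lay within 0.1 of *Pdgfc*, 4078 (35.2%) of *Pdgfra* and 5304 (45.8%) of *Pdgfrb*. The nearest were *Zfp935* and *Zfp518b* to *Pdgfc*, *2410042D21Rik* and *Tmx2* to *Pdgfra*, and *Yipf5* and *Supt7l* to *Pdgfrb*. With 4 embryos such likeness describes these libraries only.

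The partners of the Pdgf genes were examined as 7 lists of 71 genes in all, of which 56 were tested. None of these 56 passed the limma threshold in either direction (smallest adjusted p = 0.112), 8 (14.3%) had an unadjusted p under 0.05, against 13.0% of all genes, and their median log2 fold change was -0.02, against -0.08 over all genes. In both mutants, 13 of the 56 (23.2%) were above and 15 (26.8%) below both controls, against 10.2% and 35.5% of all genes. After rescaling by median ratios these became 21 (37.5%) and 12 (21.4%), against 21.1% and 21.5% of all genes, and the median was 0.06. Counts for the single lists are small and are read against the same shares. *Vegfc* was the single gene of the 56 (1.79%) past 1.5-fold against both controls, a share like the 1.87% of all genes. *Vegfc*, a growth factor for lymphatic endothelium whose receptor is related to the Pdgf receptors, measured 6.95 and 5.37 FPKM in the *Foxf2+/+* and *Foxf2+/-* controls and 3.30 and 2.87 in *Foxf2-/-* embryos 1 and 2, a log2 fold change of -0.97 ± 0.16 (SE, adjusted p = 0.112, limma).

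Of the 7 listed proteases that process the ligands, 5 were tested, and 3 of them were above both controls in both mutants and 0 below (10.2% and 35.5% of all genes), with a median log2 fold change of 0.13. The convertase gene *Furin* measured 7.75 and 7.22 FPKM in the controls against 6.94 and 8.03 in the mutants, and *Pcsk5* and *Pcsk6*, of the same convertase family, had log2 fold changes of 0.17 ± 0.10 and 0.10 ± 0.12 (SE). *Plat*, which encodes the tissue plasminogen activator that can release active PDGF-C, measured 3.87 and 3.59 FPKM in the controls against 3.96 and 5.15 in the mutants, and was picked for its role after its values were seen. *Plau* and *St14*, which encode proteases for PDGF-D, were below 1 FPKM in all embryos, as *Pdgfd* was. Among proteins that bind the ligands or act beside the receptors, 5 of 6 were tested, and 2 were above and 1 below both controls (10.2% and 35.5% of all genes). *Sparc*, which encodes a matrix protein that binds PDGF, was the most abundant at 142 and 127 FPKM in the controls against 137 and 170 in the mutants. *Lrp1*, which encodes a large endocytic receptor, had a log2 fold change of 0.19 ± 0.09, and *Nrp1*, which encodes the co-receptor neuropilin-1, one of -0.26 ± 0.12 (SE).

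Of the 21 genes that act next to the activated receptor, 20 were tested, and 2 were above and 7 below both controls, shares close to the 10.2% and 35.5% of all genes (6 and 4 after rescaling by median ratios), with a median log2 fold change of -0.04 (0.04 after rescaling). The most abundant were the adaptor genes *Grb10* at 181 to 191 FPKM in controls and 179 to 199 in mutants, *Gab1* with a log2 fold change of 0.12 ± 0.09 and *Shc1* with -0.10 ± 0.11 (SE). Of 10 genes listed under receptor down-regulation, 9 were tested and 2 lay above and 2 below both controls (10.2% and 35.5% of all genes). *Acp1* and *Cblb*, which encode a phosphatase and a ubiquitin ligase, had log2 fold changes of -0.07 ± 0.11 and 0.10 ± 0.09 (SE).

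The related receptor genes were low in these cells, in contrast to *Pdgfra* and *Pdgfrb*. *Kit* and *Csf1r* were the 2 of 6 that could be tested, with levels of 1.42 to 2.03 and 1.91 to 2.97 FPKM, and 1 of them, *Csf1r*, was above both controls (10.2% of all genes). *Csf1r* is a macrophage gene, and the summed macrophage markers were 15.2 and 21.7 FPKM in the controls against 16.7 and 23.0 in the mutants. *Kdr*, the next in level, stayed below 1 FPKM, and *Flt3* was at 0 in all embryos. Of 9 ligands of these relatives, 6 were tested, with 1 above and 2 below both controls (10.2% and 35.5% of all genes). *Vegfb*, the most abundant, had a log2 fold change of 0.09 ± 0.09 and *Vegfa* one of -0.21 ± 0.10 (SE), and *Figf* measured 5.12 and 5.90 FPKM in the controls against 5.95 and 4.14 in the mutants.

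Of 12 genes that growth factors switch on within the first hours, 9 were tested, and 2 lay above and 3 below both controls (10.2% and 35.5% of all genes), with a median log2 fold change of -0.12. *Myc*, which encodes a transcription factor of growth and division, measured 23.5 and 19.6 FPKM in the controls against 16.5 and 18.1 in the mutants, a log2 fold change of -0.31 ± 0.11 (SE, adjusted p = 0.341, limma). *Srf*, which encodes the serum response factor through which many of these genes are switched on, measured 7.77 and 7.79 FPKM in the controls against 9.12 and 10.1 in the mutants, for a log2 fold change of 0.30 ± 0.10 (SE, adjusted p = 0.328, limma). *Ier2* had a log2 fold change of -0.29 ± 0.11.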

How the data were processed

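The authors dissected and dissociated the palatal shelves of 4 littermate embryos, sorted RFP-positive cells and made libraries with the Illumina Nextera kit. They mapped reads to mm9 with Bowtie (version 0.12.7 per the submitters' processing notes) and aligned single-end reads with TopHat. Each deposited table gives, for 1 embryo, the FPKM and the coverage (an estimated mean read depth, not scaled to the size of the library by the authors) of each RefSeq transcript. Which options and release of the FPKM program were used, and the read length, is not given in the sources used here. FPKM was summed per gene symbol over entries of at least 200 bases, leaving out 10 genes with a failed estimate. log2(FPKM + 0.1) of the 11571 genes that reached 1 FPKM in 1 embryo or more was tested with limma 3.58.1 (variance trend, R 4.3.3), with Benjamini-Hochberg adjustment over all of them. The limma script was tested on simulated data. FPKM carries no depth, so no count test was made. Coverage served to estimate relative depth. Sequences were read from the NCBIM37 (mm9) genome, and exons and upstream regions from GENCODE vM1. The remaining steps used Python 3.11.15, scipy 1.17.1, numpy 2.4.6 and pandas 2.3.3. Embryos were grouped by the genotype in the labels. The Pdgf genes and the lists were chosen with earlier results of these data known. Named list genes were those past the limma threshold or past 1.5-fold against both controls and the 3 most abundant of each list, of which 1 is not reported here. The genes with 2 entries were set as a comparison after the shares of the receptor entries had been seen.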

Additional observations from a re-analysis of the deposited data

How the results depend on the processing

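Over the 15 alternatives run, 0 Pdgf genes passed the limma threshold or the fold against the controls kept, wherever each was applied. The 2-fold limit concerned the fold alone. Leaving out the variance trend, the mean per genotype and the linear term concerned limma alone. The log2 fold change of *Pdgfa* ran from 0.22 to 0.52 (adjusted p from 0.262 to 0.618), that of *Pdgfc* from 0.03 to 0.16, that of *Pdgfra* from -0.27 to -0.04 and that of *Pdgfrb* from -0.34 to 0.01. The lowest values of *Pdgfra* and *Pdgfrb* came from using only the most abundant entry, which leaves out the other entry of each gene. With entries summed, *Pdgfra* ran from -0.23 to -0.04 and *Pdgfrb* from -0.12 to 0.01. The sign of *Pdgfrb* alone turned, to 0.0064 when the embryos were rescaled by median ratios. The number of genes called by limma, 7 as reported, was 11 with a pseudocount of 1, 12 with median ratios, 27 with entries of all lengths, 17 with a mean per genotype, 15 with the number of null alleles as a linear term, and 0 with no filter, with the most abundant entry alone or without the variance trend. It was 7 to 38 with 1 embryo left out, the 38 without the *Foxf2+/-* control. The number of genes past 1.5-fold, 216 as reported, was 73 with a pseudocount of 1, 49 with a filter of 5 FPKM, 639 with no filter, 352 with entries of all lengths, 361 with the most abundant entry alone and 53 at 2-fold. It was 302 to 727 with 1 embryo left out, 411 without the *Foxf2+/+* control and 727 without the *Foxf2+/-* control. With a control left out, the fold was asked against 1 control only, so the count could not fall below 216. What else moved these counts was not tested. *Foxf2* kept its direction in all alternatives, with adjusted p over 0.05 with no filter (0.155), the most abundant entry alone (0.0983), no variance trend (0.138) and the linear term (0.0665). No paired analysis was possible because the control embryos differ in genotype and the labels give them no replicate numbers. With 2 embryos per group and unknown depth, changes of *Pdgfc*, *Pdgfra* and *Pdgfrb* inside their intervals could not be detected, and *Pdgfb* and *Pdgfd* were too low to be compared.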
